A study of Homo sapiens with 12 samples.

Results

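The genes described here are 10 components of the interferon receptors and of JAK-STAT signalling, chosen by name: the Janus kinases JAK1, JAK2 and TYK2, the receptor chains IFNAR1, IFNAR2, IFNGR1 and IFNGR2, the transcription factor STAT3, and the feedback inhibitors SOCS1 and SOCS3. All 10 were among the 60660 genes listed for every library. mRNA sequencing had been performed on 12 libraries of PCa cells, 3 in each of 4 groups: LNCaP cells and 22Rv1 cells, each transfected with a negative-control mimic (NC-mimic) or with a mimic of the PIWI-interacting RNA piR-4447944 (piR-hsa-4447944 in the labels, where these libraries are called overexpression and the NC-mimic libraries control). The mimic was a synthetic 2′ O-methoxy RNA oligo of the mature piRNA. All 4 groups, the controls included, were under androgen deprivation, in RPMI-1640 medium with 10% charcoal-stripped FBS (CS-FBS), and all had been exposed to the transfection reagent lipofectamine-3000. LNCaP is an androgen-sensitive line from a lymph node metastasis of prostate cancer, and 22Rv1 is a line from a xenograft that relapsed after castration. A difference between them is a difference between 1 line and 1 other line, and the labels do not say whether the libraries of a group came from separate cultures, so p-values measure only the spread between these libraries.

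Interferons are cytokines by which infected or stressed cells warn their neighbours. Type I interferons bind IFNAR1 and IFNAR2, whose cytoplasmic tails hold TYK2 and JAK1, and interferon-gamma binds IFNGR1 and IFNGR2, whose tails hold JAK1 and JAK2. The activated kinases phosphorylate STAT proteins, which move to the nucleus. A complex that holds STAT2 and IRF9 binds the interferon-stimulated response element, while STAT dimers bind the gamma-activated site. JAK1 also serves the receptors of the interleukin-6 family, which act mainly through STAT3. SOCS1 and SOCS3 are induced by STATs and shut the kinases off. LNCaP cells are known in the field as a line with little or no functional JAK1 and a poor response to interferon, so JAK1 in LNCaP cells against 22Rv1 cells is the first comparison given.

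The libraries held between 12161091 and 22179601 expected counts, with a median of 16357799. All 13 luminal prostate markers averaged at least 1 TPM (a level per transcript length, scaled to the same sum in each library) in each group, and their summed level ranged from 5710 to 6240 TPM in LNCaP libraries and from 2530 to 3030 TPM in 22Rv1 libraries. Of 10 leukocyte markers, 4 were at 0 in all libraries of each group, and the summed level of the list was between 1.86 and 10.5 TPM. The summed levels of 6 basal markers and of 10 stromal and endothelial markers ranged from 6.56 to 32.7 TPM and from 10.5 to 53.6 TPM. In 22Rv1 cells the replicate 3 library of each group stood apart. The chi-square statistic per gene between replicate 3 and the other libraries of its group was 39.4 and 47.2 with NC-mimic and 111 and 115 with piR-4447944 mimic. It was 3.48 to 15.9 for all other pairs of libraries within a group. The replicate 3 library with piR-4447944 mimic thus stood further apart. VEGFA was at 194.61 TPM in the one with NC-mimic and at 1468.24 TPM in the one with piR-4447944 mimic. FOS, an immediate early gene, was at 37.16 and 45.96 TPM in these 2 libraries and between 2.34 and 3.9 TPM in the other 4 of 22Rv1. In the comparisons of the lines, where leaving them out changes a call of the 10 genes or moves a fold over 1.5 times, the value without them is also given. For other genes it is given only for some. What sets these libraries apart was not tested.

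JAK1 (ENSG00000162434.13, minus strand of chromosome 1, 64833223 to 65067754, build hg38) encodes the kinase shared by both interferon receptors. Its transcript was present at a low and similar level in both lines. In LNCaP cells with NC-mimic it was at 4.16, 4.36 and 3.3 TPM, from 194, 232 and 157 expected counts. In 22Rv1 cells with NC-mimic it was at 4.87, 2.99 and 3.67 TPM, from 181, 126 and 151 expected counts. The 2 sets of libraries overlapped. The group means were 3.94 ± 0.563 and 3.84 ± 0.952 TPM (SD, n = 3 each), and the log2 fold change of 22Rv1 against LNCaP cells was -0.15 (SE 0.24, adjusted p = 0.608, edgeR quasi-likelihood test with Benjamini-Hochberg adjustment over all genes tested).

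With piR-4447944 mimic, JAK1 was at 3.36, 3.47 and 3.86 TPM in LNCaP cells and at 3.23, 2.56 and 14.3 TPM in 22Rv1 cells. The value of 14.3 TPM belonged to replicate 3 of 22Rv1 and lay above every other library, while the other 2 lay below all 3 LNCaP libraries with mimic. The log2 fold change of 22Rv1 against LNCaP cells was 0.39 (SE 0.56, adjusted p = 0.587) over all 6 libraries. Without that library it was -0.62 and passed the adjusted threshold of 0.05 (unadjusted p = 0.00759), so the direction was set by 1 library. Over both mimics, the 6 LNCaP libraries ranged from 3.3 to 4.36 TPM with a median of 3.665, and the 6 of 22Rv1 from 2.56 to 14.3 TPM with a median of 3.45. The 4 libraries of 22Rv1 replicates 1 and 2 averaged 3.41 ± 1.01 TPM. The depth behind these values was modest, with 118 to 460 expected counts of JAK1 a library. Its transcript length as deposited, an average over isoforms weighted by their estimated use, varied from 2427.39 to 4789.09 bases among libraries, so that TPM and counts of JAK1 did not scale alike.

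JAK2 (ENSG00000096968.14, plus strand of chromosome 9, 4984390 to 5129948) encodes the kinase that pairs with JAK1 at the interferon-gamma receptor and also serves hormone receptors such as those of growth hormone and prolactin. It was lower in 22Rv1 cells. LNCaP cells held 17.74, 17.17 and 12.14 TPM with NC-mimic and 15.24, 14.66 and 11.55 TPM with the piR-4447944 mimic. 22Rv1 cells held 4.79, 3.28 and 3.56 TPM with NC-mimic and 4.41, 4.26 and 3.42 TPM with the piR-4447944 mimic. No 22Rv1 library reached the lowest LNCaP library with either mimic. The log2 fold change was -1.97 (SE 0.18, adjusted p = 4.54e-05, 3.91-fold lower) with NC-mimic and -1.54 (SE 0.13, adjusted p = 0.000159, 2.92-fold lower) with the piR-4447944 mimic.

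TYK2 (ENSG00000105397.14, minus strand of chromosome 19, 10350533 to 10380608), the kinase bound to IFNAR1, was the most abundant of the 10 genes per length in all 4 groups. It averaged 81.5 ± 2.26 and 76.9 ± 8.44 TPM in LNCaP cells with NC-mimic and piR-4447944 mimic, and 80.8 ± 6.66 and 83.4 ± 10.5 TPM in 22Rv1 cells. Its log2 fold changes between the lines were -0.21 (SE 0.1, adjusted p = 0.117) and -0.13 (adjusted p = 0.334), and the groups overlapped. JAK1 and JAK2 therefore stood in different proportions in the 2 lines. The TPM of JAK1 divided by that of JAK2 averaged 0.253 ± 0.0187 in LNCaP cells with NC-mimic and 0.986 ± 0.0652 in 22Rv1 cells with NC-mimic, a quantity that compares transcripts and not active kinase. With piR-4447944 mimic it averaged 0.264 ± 0.0615 in LNCaP cells, and in 22Rv1 cells it ran from 0.601 to 4.18.

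**Figure D1:**
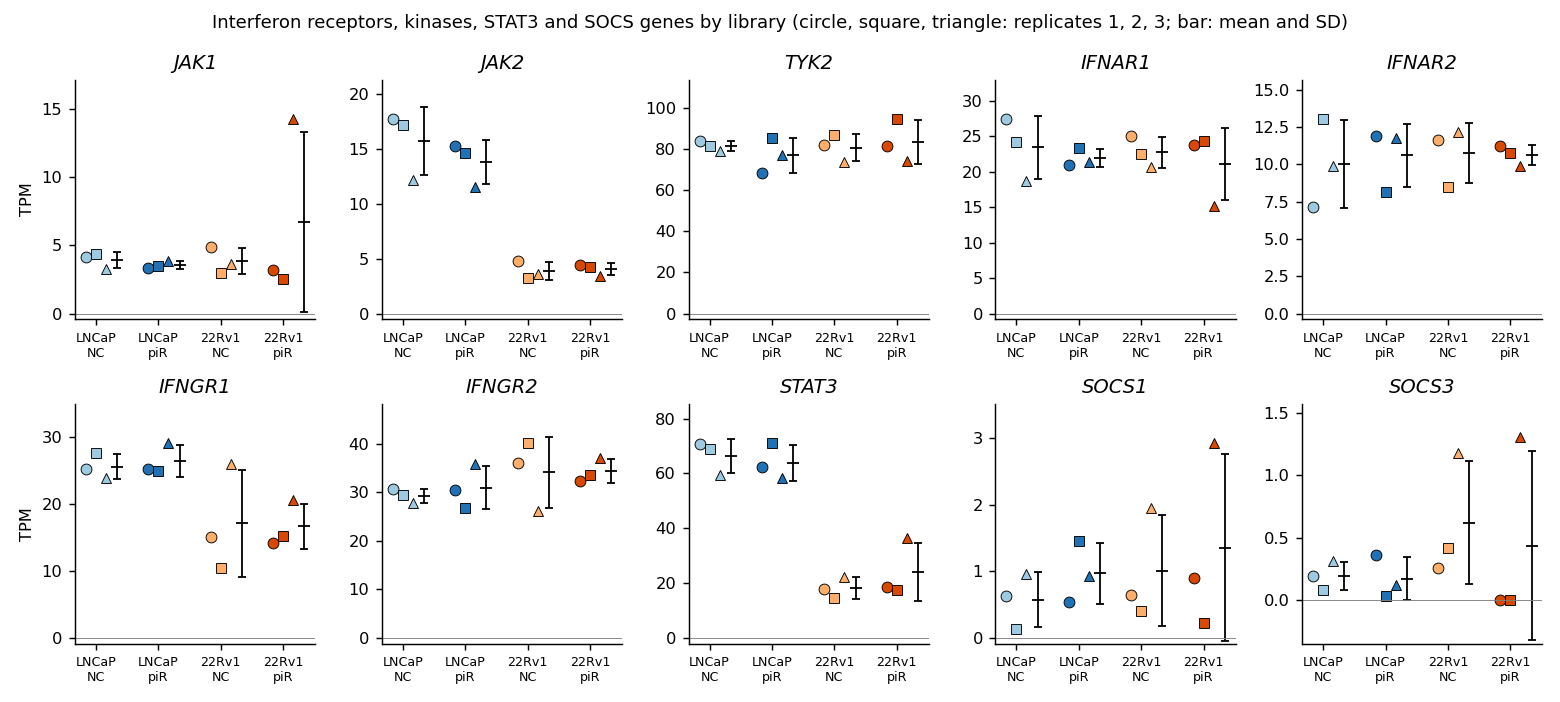
TPM of each of the 10 genes (y axis, linear) in the 12 libraries by group (x axis, NC for NC-mimic and piR for piR-4447944 mimic), with the mean and SD of 3 libraries beside the points. JAK2 and STAT3 separate the lines in both pairs of groups, and the 14.3 TPM of JAK1 is a single replicate 3 library.

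Of the type I receptor, IFNAR1 (ENSG00000142166.13, plus strand of chromosome 21, 33324387 to 33359864) was at 27.49, 24.2 and 18.66 TPM in LNCaP and 25.04, 22.49 and 20.74 TPM in 22Rv1 cells with NC-mimic. These libraries overlapped, and the log2 fold change was 0.11 (SE 0.12, adjusted p = 0.46). With piR-4447944 mimic the group means were 21.9 ± 1.27 and 21.1 ± 5.1 TPM (log2 fold change 0.15, adjusted p = 0.271), and without 22Rv1 replicate 3 the log2 fold change of 0.23 passed the threshold (unadjusted p = 0.00755). IFNAR2 (ENSG00000159110.20, plus strand of chromosome 21, 33205282 to 33265675), the chain that holds JAK1, averaged between 10.0 and 10.8 TPM in the 4 groups. Its log2 fold changes between the lines were 0.37 (SE 0.23, adjusted p = 0.208) and -0.05 (adjusted p = 0.868). IFNAR2 shares exons with a readthrough transcript into IL10RB, and its expected counts were fractional in 10 of the 12 libraries, so its level depends on how reads were divided between both gene models.

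Of the interferon-gamma receptor, IFNGR1 (ENSG00000027697.15, minus strand of chromosome 6, 137197483 to 137219449), the ligand-binding chain, was at 25.13, 27.52 and 23.85 TPM in LNCaP cells with NC-mimic. In 22Rv1 cells it was at 15.09, 10.36 and 25.9 TPM, the last again in replicate 3, which lay among the LNCaP values. The log2 fold change with NC-mimic was -0.59 (SE 0.3, adjusted p = 0.131), and without 22Rv1 replicate 3 it was -1.07 and passed the threshold (unadjusted p = 7.74e-06). With piR-4447944 mimic IFNGR1 was at 25.2, 24.84 and 29.06 TPM in LNCaP and 14.22, 15.13 and 20.5 TPM in 22Rv1 cells, with no overlap. The log2 fold change was -0.73 (SE 0.2, adjusted p = 0.02, 1.66-fold lower). This call was lost when LNCaP replicate 1 (-0.76), LNCaP replicate 3 (-0.67) or 22Rv1 replicate 2 (-0.67) was left out. IFNGR2 (ENSG00000159128.15, plus strand of chromosome 21, 33403413 to 33479348), the signalling chain that recruits JAK2, averaged 29.3 ± 1.44 and 34.1 ± 7.25 TPM with NC-mimic in LNCaP and 22Rv1 cells (log2 fold change 0.28, SE 0.14, adjusted p = 0.128). Without 22Rv1 replicate 3 its log2 fold change of 0.395 passed the threshold (unadjusted p = 0.0048). With piR-4447944 mimic it averaged 31.0 ± 4.52 and 34.3 ± 2.47 TPM (log2 fold change 0.19, adjusted p = 0.254). The level of IFNGR2 divided by that of IFNGR1 ranged from 1.07 to 1.23 in the LNCaP libraries and from 1.81 to 2.27 in 22Rv1 cells with piR-4447944 mimic. In 22Rv1 cells with NC-mimic it ran from 1.01, in replicate 3 and below every LNCaP library, to 3.87.

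STAT3 (ENSG00000168610.16, minus strand of chromosome 17, 42313324 to 42388540), the main effector of the interleukin-6 family of cytokines, was lower in 22Rv1 cells. LNCaP cells held 70.92, 68.96 and 59.49 TPM with NC-mimic and 62.26, 71.11 and 58.19 TPM with the piR-4447944 mimic. 22Rv1 cells held 17.97, 14.47 and 22.16 TPM with NC-mimic and 18.61, 17.6 and 36.42 TPM with the piR-4447944 mimic. The lines did not overlap, although the replicate 3 libraries of 22Rv1 were the highest of their groups. The log2 fold change was -1.73 (SE 0.16, adjusted p = 6.27e-05, 3.33-fold lower) with NC-mimic and -1.42 (SE 0.26, adjusted p = 0.00393, 2.67-fold lower) with the piR-4447944 mimic.

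SOCS1 (ENSG00000185338.6, minus strand of chromosome 16, 11254417 to 11256204) and SOCS3 (ENSG00000184557.4, minus strand of chromosome 17, 78356778 to 78360077) were near the limit of detection. SOCS1 had 3 to 34 expected counts a library and averaged between 0.577 and 1.35 TPM in the 4 groups. It did not pass the count filter in the NC-mimic comparison, and with piR-4447944 mimic its log2 fold change was 0.38 (SE 0.88, adjusted p = 0.738), and -0.89 without 22Rv1 replicate 3. SOCS3 had 7, 3 and 10 counts in LNCaP cells with NC-mimic and 11, 13 and 29 in 22Rv1 cells with NC-mimic, and in TPM these libraries overlapped. Its log2 fold change of 1.67 (SE 0.76) did not pass the threshold (adjusted p = 0.0892), but did without replicate 1 of 22Rv1 (2.07, unadjusted p = 0.0249), and was 0.82 without replicate 3. With piR-4447944 mimic SOCS3 had 10, 1 and 4 counts in LNCaP cells and 0, 0 and 38 in 22Rv1 cells, and it did not pass the filter in that comparison of the lines. The 2 replicate 3 libraries of 22Rv1 held the highest SOCS1 and SOCS3 values of all 12 libraries.

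The order of the levels per length in LNCaP cells with NC-mimic was TYK2, STAT3, IFNGR2, IFNGR1, IFNAR1, JAK2, IFNAR2, JAK1, SOCS1 and SOCS3. The neighbours IFNGR1 and IFNAR1, JAK2 and IFNAR2, and SOCS1 and SOCS3 overlapped in their libraries, and the others did not. In 22Rv1 cells with NC-mimic the order was TYK2, IFNGR2, IFNAR1, STAT3, IFNGR1, IFNAR2, JAK2, JAK1, SOCS1 and SOCS3, in which each neighbour from IFNAR1 to IFNAR2 overlapped the next, as did JAK2 and JAK1, and SOCS1 and SOCS3. Among all genes tested, the mean level of STAT3 stood at percentile 86.8 in LNCaP cells and 61.8 in 22Rv1 cells, and that of JAK2 at 56.8 and 32.0. JAK1 stood at percentile 33.6 and 31.9, and TYK2 at 89.6 and 89.7.

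With NC-mimic 9 of the 10 genes passed the count filter, and 2 (JAK2 and STAT3, both lower in 22Rv1 cells) passed the adjusted threshold of 0.05. Of all 17497 genes tested, 58.4% passed it, 30.9% higher and 27.5% lower in 22Rv1 cells. With piR-4447944 mimic 9 genes passed the filter and 3 (JAK2, IFNGR1 and STAT3, all lower) passed the threshold, beside 52.4% of 17283 genes, 28.2% higher and 24.2% lower. The lines did not overlap in TPM for 2 of these genes with NC-mimic and for 3 with the piR-4447944 mimic, beside 63.1% and 59.9% of all genes. The shares of the 10 genes that differed were thus below those of all genes in either comparison. Both comparisons use different libraries of the same 2 lines.

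**Figure D2:**
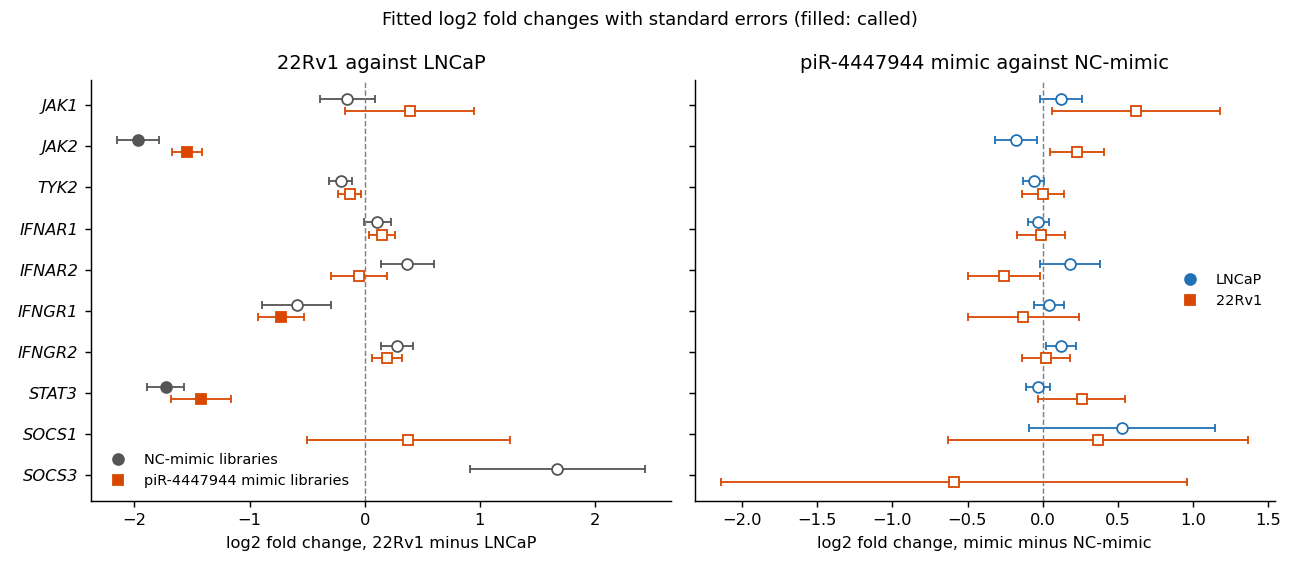
Fitted log2 fold changes (x axis) of the genes that passed the count filter, with standard errors as bars, for 22Rv1 against LNCaP (left) and piR-4447944 mimic against NC-mimic (right). Filled symbols passed the rule of their comparison: JAK2 and STAT3 in both comparisons of the lines and IFNGR1 with piR-4447944 mimic, and no gene in the comparisons of the mimics.

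The other STATs, JAK3 and the interferon regulatory factors made a list of 11 genes, of which 4 were higher (STAT6, STAT4, JAK3 and STAT5A) and 3 lower (IRF1, IRF2 and STAT2) in 22Rv1 cells in both comparisons of the lines. Of the 16862 genes tested in both, 24.9% were higher and 21.5% lower in both, the background for this and the following lists. STAT6, which carries interleukin-4 and interleukin-13 signals, was at 1.26, 1.74 and 1.26 TPM in LNCaP cells with NC-mimic and at 101.32, 105.55 and 75.95 TPM in 22Rv1 cells with NC-mimic. Its log2 fold change was 6.41 (SE 0.21, adjusted p = 4.02e-07) with NC-mimic and 6.61 (SE 0.16, adjusted p = 3.12e-06) with the piR-4447944 mimic. STAT6 divided by STAT3 thus averaged 0.0214 in LNCaP and 5.45 ± 1.94 in 22Rv1 cells with NC-mimic, so the more abundant of these 2 transcripts was STAT3 in LNCaP and STAT6 in 22Rv1 cells. STAT2 had log2 fold changes of -0.5 and -0.48 (adjusted p = 0.00207 and 0.0115). IRF1, a transcription factor that interferons induce, was at 9.09 to 13.14 TPM in LNCaP libraries and 0.97 to 3.91 TPM in 22Rv1 libraries (log2 fold changes -2.14, SE 0.27, adjusted p = 0.000282, and -1.9, SE 0.31, adjusted p = 0.00245). IRF2, a repressor of IRF1 targets, fell by 1.07 and 0.62 on the log2 scale from LNCaP to 22Rv1 cells, the second call being lost without LNCaP replicate 3 (-0.59). STAT4 had 2 counts over the LNCaP libraries with NC-mimic and 63 over those of 22Rv1, a ratio of 35.0 (95% counting interval 9.3 to 296). With the piR-4447944 mimic its log2 fold change was 3.84, and the call was lost in 1 of 6 fits that left out 1 library (3.26 to 5.68). JAK3, the kinase of the common gamma chain, had log2 fold changes of 2.22 and 2.97, the second not past the threshold without LNCaP replicate 2 (2.92).

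**Figure D3:**
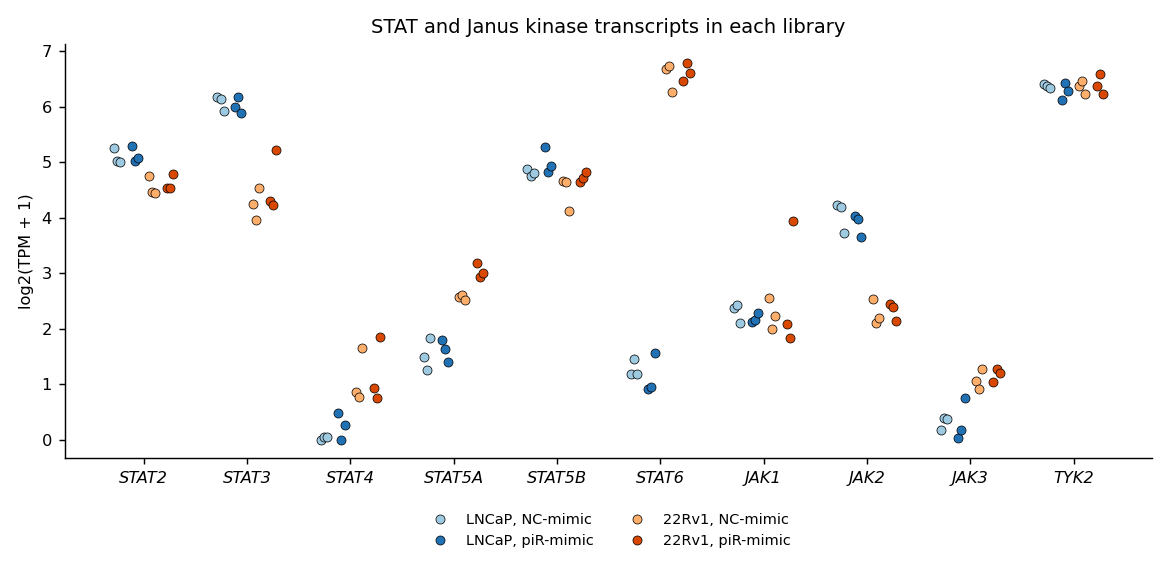
Level of STAT and Janus kinase transcripts as log2(TPM + 1) (y axis) in every library, coloured by group. STAT3 and JAK2 are lower and STAT6 and STAT5A higher in all 22Rv1 libraries than in all LNCaP libraries, while TYK2 overlaps.

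Of 17 other negative regulators, all tested, 3 were higher (PIAS3, PIAS4 and PTPN1; 17.6%) and 5 lower (29.4%) in 22Rv1 cells in both comparisons, beside 24.9% and 21.5% of all genes, so that the list stood near the background. PIAS3, a protein inhibitor of STAT3, had log2 fold changes of 0.88 and 0.97. SH2B3, an adaptor that restrains JAK2, had log2 fold changes of -1.87 and -1.92, and those of SOCS2, an inhibitor of growth hormone signalling, were -1.03 and -1.64. SOCS5 had log2 fold changes of -0.58 and -0.72, and PTPN1, a phosphatase of JAK2 and TYK2, of 0.32 and 0.52. Leaving out 1 library at a time lost the SOCS2 call in 5 of 6 fits with NC-mimic and 3 of 6 with piR-4447944 mimic, that of SOCS5 in 3 and 4, that of PIAS4 in 2 and 2, and that of PTPN1 with NC-mimic in 4.

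The ligands were scarce. Of 21 interferon genes, 15 had no count in any library, the other 6 had between 1 and 13 counts over all 12 libraries, and none passed the count filter. IFNB1, the type I interferon of non-immune cells, had 4 counts over the LNCaP libraries with NC-mimic, 9 over those with piR-4447944 mimic and 0 over all 22Rv1 libraries. When a count of 0 is set to 3 over the 6 libraries, this makes it at least 4.06-fold higher in LNCaP cells. IFNL1, IFNL2 and IFNL3 were also counted in LNCaP libraries only. IFNE (6 counts) and IFNK (5 counts) were counted in 22Rv1 libraries only, at least 2.13-fold and 1.78-fold higher there by the same rule. Such a bound sets only the 0 to 3 and takes the other count as exact, so it is no confidence limit where that count is small. The intervals of ratios cover counting error only. Of 13 other ligands of JAK1-bound receptors, 7 had a count and 4 passed the filter. CLCF1 was higher in 22Rv1 cells (log2 fold changes 2.47 and 2.28) and LIF, leukaemia inhibitory factor, was lower (-1.97 and -1.15), the second call being lost in 5 of 6 fits that left out 1 library (-1.71 to -0.9).

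Both chains of the receptor for interferon lambda, the type III interferons, were higher in 22Rv1 cells. IFNLR1 was at 0 in all 6 LNCaP libraries and at 5.73, 4.06 and 6.56 TPM in 22Rv1 cells with NC-mimic and 4.14, 5.19 and 7.4 TPM with the piR-4447944 mimic. It was at least 312-fold higher with NC-mimic and at least 272-fold higher with the piR-4447944 mimic, with the 0 set to 3 counts over the group. IL10RB, the shared chain, had log2 fold changes of 1.11 (adjusted p = 0.00153) and 0.68 (adjusted p = 0.0238), and the second call was lost in 4 of 6 fits that left out 1 library (0.52 to 0.78). Of 15 other receptor chains that work through JAK1, 10 were tested in both comparisons, 2 were higher and 5 lower in 22Rv1 cells. IL6ST, the signalling chain gp130 of the interleukin-6 family, was at 33.7 to 44.64 TPM in LNCaP libraries and 8.44 to 17.36 TPM in 22Rv1 libraries (log2 fold changes -1.43, adjusted p = 5.54e-05, and -1.34, adjusted p = 0.000113). Among the chains that pair with it, LIFR (-1.5 and -1.39) and OSMR (-1.8 and -1.57) were lower, and IL11RA (1.7 and 2.14) was higher. IL6R, the interleukin-6 receptor, did not pass the threshold (-0.97 and -0.8, adjusted p = 0.162 and 0.32). In replicates 1 and 2 of 22Rv1 it was at 3.38 to 5.95 TPM, below the LNCaP libraries (15.27 to 20.83), and in replicate 3 it was at 17.5 and 19.53 TPM, among them. Without replicate 3 the log2 fold changes of IL6R were -2.11 and -2.05 and passed the threshold. CNTFR had 3 counts over the LNCaP libraries with NC-mimic and 1217 over those of 22Rv1, a ratio of 451 (95% counting interval 154 to 2190). IL4R, the receptor chain upstream of STAT6, was lower in the line with more STAT6 (-3.57 and -4.14, the first -4.36 without 22Rv1 replicate 3). IL15RA was lower too (-2.19 and -3.02), the first not past the threshold without LNCaP replicate 3 (-1.89) and at -2.94 without 22Rv1 replicate 3. Of 9 receptors that use JAK2 or TYK2 without JAK1, 6 were tested, of which the prolactin receptor PRLR was higher (8.71 and 7.49) and the growth hormone receptor GHR lower (-1.14 and -1.38).

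The pathway's best-known output is the set of genes with binding sites for its STAT complexes, and promoter windows are shown for a few genes described below. They come from the RefSeq promoter table for GRCh38, from 250 bases before to 50 after each gene's start, and 9 of the 10 genes (not IFNAR2) had an entry. The response element was searched as the letters GAAA, any 2 bases and GAAA again, and the gamma-activated site as TTCNNNGAA, on both strands, and the letters of one can overlap those of the other. Capitals mark the match, each window reads 5′ to 3′ on the gene's own strand, and the coordinates are those of the printed bases. The first is the only match among the 9 genes with an entry, the next 4 are response elements of target genes, and the last is a gamma-activated site.
SOCS1 (chr16:11256298-11256327, minus): cgccaccgcgGAAAGAGAAAccaaaagtgg
IFI6 (chr1:27672288-27672317, minus): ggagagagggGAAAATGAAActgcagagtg
ISG15 (chr1:1013380-1013409, plus): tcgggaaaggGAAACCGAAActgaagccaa
IFIT1 (chr10:89392510-89392539, plus): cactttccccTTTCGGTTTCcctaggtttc
CXCL10 (chr4:76023699-76023728, minus): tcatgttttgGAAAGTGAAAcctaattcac
IRF1 (chr5:132490879-132490907, minus): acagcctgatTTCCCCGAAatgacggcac
The response element letters were found for 22 of 29 type I interferon targets (75.9%) and 11 of 13 interferon-gamma targets (84.6%) with an entry, for 1 of the 9 receptor, kinase, STAT3 and SOCS genes (11.1%), for 0 of 13 STAT3 targets, and for 4.38% of 27305 genes of the table. The gamma-activated site letters were found for 9 of 29 type I targets (31.0%), 6 of 13 interferon-gamma targets (46.2%), 4 of 13 STAT3 targets (30.8%), 0 of these 9 genes and 9.38% of all genes. A match describes these letters in this window and is not a measured binding site.

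Most targets of type I interferon that passed the count filter were lower in 22Rv1 cells. Of 35 genes, 31 were tested with NC-mimic, of which 21 were lower and 5 higher, and 31 with piR-4447944 mimic, of which 20 were lower and 3 higher. In both comparisons 30 were tested, 19 lower and 2 higher. The median log2 fold change was -1.44 with NC-mimic and -1.85 with the piR-4447944 mimic, beside 0.01 and 0.04 for all genes tested. Genes such as IFIT2, OASL and OAS1 passed the count filter through LNCaP libraries alone, so these counts and medians are partly set by the filter. The smaller counts under a stricter filter are given at the end. IFIT2, a gene of the antiviral IFIT cluster, was at 9.48, 9.45 and 7.76 TPM in LNCaP and 0.06, 0 and 0.4 TPM in 22Rv1 cells with NC-mimic. OASL, related to the oligoadenylate synthetases, was at 11.78, 13.97 and 8.38 TPM in LNCaP and 0, 0 and 0.33 TPM in 22Rv1 cells with NC-mimic, so that its few 22Rv1 counts lay in replicate 3. With piR-4447944 mimic it had 1311 counts over the LNCaP and 1 over the 22Rv1 libraries, a ratio of 1290 (95% counting interval 230 to 50800). OAS1 had 168 and 2 counts with NC-mimic, a ratio of 75.5 (20.6 to 629). IFIT1, whose element is printed above, was at 6.79, 7.37 and 4.35 TPM in LNCaP and 0, 0 and 0.55 TPM in 22Rv1 cells with NC-mimic. Leaving out 1 library at a time moved the log2 fold changes of these genes but lost no call. With NC-mimic they ran from -8.81 to -5.23 for OAS1 and from -7.91 to -5.55 for IFIT2. OASL ran from -11.54 to -5.74 and IFIT1 from -11.46 to -4.5. With piR-4447944 mimic OASL ran from -11.79 to -9.37. The list was not uniform. ISG15, a ubiquitin-like modifier, was at 225.19 to 271.43 TPM in LNCaP and 329.54 to 427.99 TPM in 22Rv1 cells with NC-mimic (log2 fold change 0.61, adjusted p = 0.00407). With piR-4447944 mimic it was at 298.72 to 378.59 and 332.34 to 404.49 TPM, which overlap (0.03, adjusted p = 0.891). EPSTI1 (log2 fold changes 2.81 and 2.55) and IFITM2 (1.21 and 0.78), which blocks viral entry, were higher in 22Rv1 cells in both comparisons. The IFITM2 call with piR-4447944 mimic was lost in 5 of 6 fits that left out 1 library (0.63 to 0.96).

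Among 20 targets of interferon-gamma, 15 were tested in both comparisons of the lines, 11 were lower in 22Rv1 cells in both and 0 were higher in either. The median log2 fold changes were -3.59 and -3.39. Here too, genes such as CXCL10, CXCL11 and APOL1 passed the count filter through LNCaP libraries alone, so these counts and medians are partly set by the filter. CXCL10, a chemokine that attracts T cells, was at 2.97, 3.99 and 1.72 TPM in LNCaP cells with NC-mimic, at 4.68, 5.32 and 2.65 TPM with piR-4447944 mimic, and at 0 in all 6 libraries of 22Rv1. It was at least 33.6-fold lower in 22Rv1 cells with NC-mimic and at least 45.8-fold lower with the piR-4447944 mimic, and CXCL11 at least 12.9-fold and 16.7-fold lower. APOL1 had 189 and 1 counts with NC-mimic, a ratio of 170 (95% counting interval 30.1 to 6750). Its log2 fold change of -6.95 ran from -8.99 to -6.29 over the fits that left out 1 library. CD274, which encodes the checkpoint ligand PD-L1 and lies in the neighbourhood of JAK2, was at 6.06 to 15.25 TPM in LNCaP libraries and 0.1 to 0.9 TPM in 22Rv1 libraries (log2 fold changes -5.2, adjusted p = 2.57e-05, and -5.35, adjusted p = 0.000441). Leaving out the doubted library did not remove these counts: without 22Rv1 replicate 3, 21 and 24 type I targets and 14 and 14 interferon-gamma targets were lower in 22Rv1 cells, against 21 and 20 type I targets and 11 and 11 interferon-gamma targets with it. Over all fits that left out 1 library, type I targets lower ran from 17 to 21 and from 16 to 24. Interferon-gamma targets lower ran from 10 to 14 and from 11 to 14. The count filter was redone in each fit, so the genes tested could differ. JAK1, the kinase that both receptors need, did not pass the test in either comparison of all libraries. With piR-4447944 mimic it passed as lower in 22Rv1 cells without 22Rv1 replicate 3, as given above. Whether its transcript level bears on these targets was not tested.

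Of 20 STAT3 targets, 16 were tested in both comparisons of the lines, 6 were higher (37.5%) and 5 lower (31.2%) in 22Rv1 cells, beside 24.9% and 21.5% of all genes. The medians were 0.25 and 0.54. TIMP1, an inhibitor of metalloproteinases, had 2 counts over the LNCaP libraries with NC-mimic and 3332 over those of 22Rv1, a ratio of 1850 (95% counting interval 512 to 15300). A2M, a protease inhibitor of plasma, had 2 and 844 counts, a ratio of 469 (129 to 3880). FOS was also higher (3.94 and 3.43), but only 1.45 and 1.07 without replicate 3 of 22Rv1, and its call was lost without LNCaP replicate 2 or 3 with NC-mimic and without any 1 LNCaP library with piR-4447944 mimic. BCL2L1, an inhibitor of apoptosis, was lower (-1.27 and -1.11), as was LRG1 (-2.26 and -4.25).

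Mimic and NC-mimic were compared within each line by the thresholds of the study for DEGs, p under 0.05 before adjustment and an absolute log2 fold change over 0.2. The study applied them to DESeq2 fold changes that it had shrunk. Here they were applied to unshrunken edgeR fold changes, so this rule is not the study's own. In LNCaP cells far fewer genes met it with shrunken values, as given at the end. None of the 9 tested genes in LNCaP cells and none of the 10 in 22Rv1 cells met it, where 2.22% and 1.48% of all genes did, and none had an unadjusted p under 0.05. Over all genes, edgeR gave 0 genes with an adjusted p under 0.05 in either line, with 433 and 250 at an unadjusted p under 0.05, and the Wald test of DESeq2 gave 2 and 1. In LNCaP cells the log2 fold changes of mimic against NC-mimic were 0.12 (SE 0.14) for JAK1, -0.18 (SE 0.14) for JAK2, 0.18 (SE 0.2) for IFNAR2, 0.53 (SE 0.62) for SOCS1, and between -0.06 and 0.12 for TYK2, IFNAR1, IFNGR1, IFNGR2 and STAT3. The groups of libraries overlapped for each of these genes, beside 8.4% of all genes whose groups did not.

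In 22Rv1 cells the log2 fold changes were 0.62 (SE 0.56) for JAK1, 0.23 (SE 0.18) for JAK2, 0.26 (SE 0.29) for STAT3, and between -0.26 and 0.02 for TYK2 and the 4 receptor chains. No gene separated its groups, where 8.81% of all genes did. The JAK1 value came from 1 library with mimic, at 14.3 TPM against 3.23 and 2.56 in the other 2, and with both replicate 3 libraries left out it was -0.14. With the replicate number as a block it was 0.33. SOCS1 (0.37, SE 1) and SOCS3 (-0.59, SE 1.55) rested on few counts. SOCS3 was at 0 in 2 libraries with mimic, and met the rule when the third was left out (unadjusted p = 0.00655), a comparison of 0 counts with 53 over the NC-mimic libraries. The difference of the mimic effect between the lines had no gene of the 10 with an unadjusted p under 0.05, beside 3.26% of all genes. It was 0.52 (SE 0.64) for JAK1 and 0.41 (SE 0.22) for JAK2, with an adjusted p of 1.0 by edgeR for both.

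Downstream, 13 of 31 type I interferon targets that passed the filter in LNCaP cells met this rule with a higher level under piR-4447944 mimic and 0 with a lower level, beside 1.38% and 0.843% of all genes. IFI6, a mitochondrial protein induced by interferon, was at 49.86, 43.14 and 48.59 TPM with NC-mimic and 79.54, 89.51 and 69.65 TPM with the piR-4447944 mimic (log2 fold change 0.78, SE 0.11, unadjusted p = 1.19e-05). ISG15 was at 271.43, 225.19 and 259.72 TPM with NC-mimic and 378.59, 377.37 and 298.72 TPM with the piR-4447944 mimic (log2 fold change 0.51, SE 0.1, unadjusted p = 0.00019). IFIT2 was at 9.48, 9.45 and 7.76 TPM with NC-mimic and 14.54, 15.16 and 9.97 TPM with the piR-4447944 mimic (log2 fold change 0.57, SE 0.14, unadjusted p = 0.00135). None of the 13 passed Benjamini-Hochberg adjustment over all genes (adjusted p = 0.193 for IFI6 and 0.999 for the other 12). The groups did not overlap for 7 of them, beside 8.4% of all genes tested. The 13 were picked by their p-values in these same libraries, so this adds no support. The median over the list was 0.38, against 0.06 for 16 interferon-gamma targets, of which 0 met the rule, and 0 of 14 STAT3 targets met it. The count fell to 7 without LNCaP mimic replicate 2, to 8 without NC-mimic replicate 3, to 2 with DESeq2's shrunken fold changes and to 1 in a fit of all 12 libraries. IRF9, the DNA-binding partner of STAT2, was at 14.12, 10.79 and 7.85 TPM with NC-mimic and 19.38, 24.83 and 13.65 TPM with the piR-4447944 mimic. Its groups overlapped, and it met the rule (log2 fold change 0.67, unadjusted p = 0.0117), as did IRF3, which induces interferon (0.23, unadjusted p = 0.0331), both with an adjusted p of 0.999. IRF9 did not meet the rule without LNCaP mimic replicate 1, nor did IRF3 without mimic replicate 1 or 2 or NC-mimic replicate 2.

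In 22Rv1 cells 21 type I targets passed the filter, of which 0 met the rule as higher and 1 as lower with mimic, beside 0.799% and 0.681% of all genes. That gene was IFITM3, which restricts viral entry (log2 fold change -0.64, unadjusted p = 0.0422, adjusted p = 0.999), and the median over the list was -0.09. IFITM3 did not meet the rule in 5 of the 6 fits that left out 1 library, and did so only without NC-mimic replicate 1 (log2 fold changes from -0.81 to -0.38). Only 6 of the 13 genes that met the rule in LNCaP cells had enough counts to be tested in 22Rv1 cells. For the difference of the mimic effect between the lines, no gene of the list had an adjusted p under 0.05 by edgeR. Nor did any other gene tested (smallest adjusted p 0.665). Of the 13 genes, 4 had an unadjusted p under 0.05 for it, beside 3.26% of all genes. They had been picked by p in LNCaP libraries that this difference also uses. Of 33 list genes tested, 24 were below 0 (median -0.56, against 0.0 for all genes), and many of these were near 0 counts in 22Rv1 cells. IRF7, an interferon-induced factor (0.86, unadjusted p = 0.0165), and STAT5A (0.5, unadjusted p = 0.0455) met the rule as higher with mimic in 22Rv1 cells, both with an adjusted p of 0.999. STAT5A did not meet it when any 1 of the 6 libraries was left out, and IRF7 did not without NC-mimic replicate 2.

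The genome around the 10 genes was also compared between the lines, over protein-coding genes that start within 500 kb of each. Over all genes, 24.9% were higher and 21.5% lower in 22Rv1 cells in both comparisons of the lines. Around JAK2 on chromosome 9, 9 neighbours were tested in both comparisons, 8 were lower in 22Rv1 cells in both and none was higher, with a median log2 fold change of -1.32 with NC-mimic. They included the relaxin genes RLN1 (-5.5 and -5.48) and RLN2 (-1.89 and -2.38), CD274, CDC37L1 (-1.44 and -0.87) and PLGRKT (-1.26 and -1.75). Around STAT3 on chromosome 17, 35 neighbours were tested, 7 were higher and 9 lower, with a median of -0.26. STAT5A, whose start lies at -101.0 kb from that of STAT3, was higher (1.23 and 1.76), and STAT5B (-0.06 and 0.03), at -99.9 kb, did not pass the threshold. Around JAK1, 5 neighbours were tested, of which DNAJC6 (2.42 and 2.42) and LEPROT (0.87 and 0.88) were higher and none was lower. Around TYK2, 8 of 30 were higher and 2 lower, around SOCS1 1 of 7 was higher and 4 lower (median -0.82), and around SOCS3 1 of 11 was higher and 3 lower (median -0.28). The genes of the interferon receptor cluster on chromosome 21 had 11 tested neighbours around IFNAR1 (3 higher, 1 lower), 13 around IFNAR2 (5 and 1) and 11 around IFNGR2 (3 and 1), and many of these are the same genes. None of 3 around IFNGR1 was called in both comparisons.

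The genes whose log2(TPM + 1) over the 12 libraries was most like that of JAK1 were ACAP1 (Pearson r 0.949), FAM220A (0.94), ANKRD11 (0.938), MPIG6B (0.929) and PTGES3L-AARSD1 (0.927), among 18297 genes. Those most unlike it were PCDHGC3 (-0.97), TRAM2 (-0.945), NOLC1 (-0.94), C20orf27 (-0.936) and PHB (-0.936). This likeness describes mainly the library with 14.3 TPM of JAK1, since ACAP1 was at 0.48, 0.66 and 24.83 TPM in the 22Rv1 libraries with mimic.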

How the data were processed

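The submitters' processing notes name STAR 2.7.1a, RSEM 1.3.0 and the build hg38. The deposited values used here are RSEM's expected counts per gene, estimates that divide ambiguous reads between genes, and its TPM, which the authors' tool scales by effective length to the same sum in every library. The study's own tests used DESeq2 1.34.0 in R 4.1.1. The level of the mimic was not measured here.

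Here expected counts were rounded and tested with edgeR 4.0.16 (R 4.3.3; TMM normalization, filterByExpr, quasi-likelihood fit) in 5 comparisons: 22Rv1 against LNCaP with each mimic, piR-4447944 mimic against NC-mimic in each line, and the difference of the latter. P-values were adjusted by Benjamini-Hochberg over all genes tested. A gene differed between the lines at an adjusted p under 0.05. For the mimics the study's thresholds were used (unadjusted p under 0.05, absolute log2 fold change over 0.2), on unshrunken edgeR fold changes. Alternatives were DESeq2 1.42.0, limma 3.58.1 on log2(TPM + 1), other filters and scalings, leaving out each library, and the replicate number as a block. The genes and lists were chosen with earlier results of these data known. Named genes were all 10, and of each list up to 3 per direction with the largest change in both comparisons of the lines, or the lowest p for the mimics. FOS and VEGFA as marks of replicate 3, and IL6ST, LIFR, CD274, IFIT1, IFNB1 and the printed promoters were added after their values were seen. The script was tested on simulated counts. Depth was 12161091 to 22179601 expected counts a library. Deviations of same-numbered libraries correlated at 0.198, 0.167 and 0.355 between the 22Rv1 groups, and at 0.021, 0.005 and 0.189 between the LNCaP groups. The 22Rv1 groups were thus judged to be paired and the LNCaP groups not. No main fit used this pairing, in either line, and the replicate number entered only as a block in the alternative fits. Positions come from GENCODE on hg38. Protein sequences were not used here, and 1 gene of the signalling list is not reported here.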

Additional observations from a re-analysis of the deposited data

How the results depend on the processing

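Of the 10 genes, the number that passed the rule did not change under DESeq2's test or size factors, other filters, limma on TPM, or a fit of all 12 libraries. At an adjusted p under 0.01, or an absolute log2 fold change of at least 1, IFNGR1 dropped out and 2 genes differed with piR-4447944 mimic. Leaving out 1 library at a time, 2 to 4 genes differed between the lines with NC-mimic and 2 to 5 with piR-4447944 mimic, where the higher values came without 22Rv1 replicate 3. For the mimics, 0 to 1 gene met the rule in LNCaP cells (IFNAR2, 0.415, without NC-mimic replicate 2; JAK2, -0.339, without NC-mimic replicate 3) and 0 to 1 in 22Rv1 cells (SOCS3), and for the difference between the lines 0 to 0. The log2 fold change of JAK1 between the lines with piR-4447944 mimic ran from -0.62 to 0.744, and was -0.62 without 22Rv1 replicate 3. With the replicate block, which the main fits did not use, 2, 3, 0, 0 and 0 genes passed in the 5 comparisons, as without it. The block changed no call among them in the 22Rv1 groups. It changed JAK1 there from 0.625 to 0.332. Leaving out both replicate 3 libraries of 22Rv1, and all alternatives for the lists and their genes, were chosen after seeing the data.

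Counts over all genes moved more. By the study's thresholds on unshrunken edgeR values, 361 genes changed with mimic in LNCaP cells, against 3 with DESeq2's shrunken fold changes, which the study used. The paper reported more genes than that as changed in both lines, so the shrunken fit here did not give its count. Why was not tested. In LNCaP cells there were 168 in a fit of all 12 libraries, 639 and 656 by limma, 891 with no filter and 1008 without NC-mimic replicate 3. In 22Rv1 cells 250 genes changed, against 420 with the replicate block, 529 and 541 by limma, 532 with no filter, 781 without both replicate 3 libraries and 1232 in the fit of all 12. Limma on log2(TPM + 0.1) shifted the median of all genes between the lines with NC-mimic by -0.11. With at least 10 counts in every library, which removes genes near 0 in 1 line, 9 and 10 type I targets and 3 and 3 interferon-gamma targets were lower in 22Rv1 cells. SOCS1 and SOCS3 are limited by depth, and no alternative with a minimum of 10 counts could test them.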
